A study of Arabidopsis thaliana with 7 samples.

Results

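The genes described here were listed for a FAIRE-seq peak in contrasts with both wild type controls for exactly 1 of 3 *msh1* memory plants of *Arabidopsis thaliana*. A gene was a member when it stood in both gene lists of that plant, 1 for each wild type control, and in none of the 4 lists of the other memory plants. The members were thus selected on the listing itself. The rule gave 260 genes, or 10.0% of the 2600 genes in any list. They were 0.947% of the 27444 nuclear protein-coding genes, of which 9.47% were in any list, and they are called single-plant genes below. Memory plant 1 supplied 181 of them (69.6%), memory plant 2 supplied 42 (16.2%) and memory plant 3 supplied 37 (14.2%). FAIRE-seq, an assay of open chromatin that uses formaldehyde crosslinking, was run on rosettes of crosslinked seedlings grown for 14 days on MS medium at 24 °C with 12 h of light. The libraries used were 3 of the *msh1* memory line and 2 of Col-0 wild type, the parental accession. Each library is called a plant here, and the sample titles do not say whether it came from 1 plant or several. The wild type controls carry the codes C2 and C3 in the lists, and which replicate each code stands for is not given in the sources used here. Memory plants carry no *MSH1*-RNAi transgene but descend from plants that did. All plants were crosslinked, and a decrossed pool per genotype was not analysed here.

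In crosslinked nuclei, DNA wound on nucleosomes is held by protein, while DNA of active promoters and enhancers stays free and is recovered from the aqueous phase, so that FAIRE reads gather over open chromatin. *MSH1* is a nuclear gene for a MutS homologue that acts on plastid and mitochondrial genomes, and its silencing leads to altered growth that can persist after the transgene has been lost. The values used here are lists of genes, without a peak's position, height or p-value. A gene was listed by the authors when a peak lay in it or within 2 kb on either side, so listing is presence or absence. Absence says only that no peak was reported in that contrast, and an unlisted gene can still be open in that plant. The lists do not say whether a listed peak was higher or lower in the memory plant than in the control. Read depth is unknown, and no interval is given. Both lists of a memory plant share that plant's single library, and each list sets 1 library against 1 library. The difference in listing between plants was therefore not tested, and plant and library cannot be told apart. *MSH1* itself (AT3G24320) stood in 0 of the 6 lists.

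The promoters of 4 members that act on chromatin or perceive light are shown as examples whose listings and neighbours are described below. Each runs from 250 bases before to 50 bases after the annotated gene start, 5′ to 3′ on the gene's strand, in RefSeq TAIR10.1, with capitals marking the TATA box (TATAAA) or the site II element (TGGGCC), on either strand. *DMS3* (a protein that helps RNA polymerase V reach chromatin in RNA-directed DNA methylation) was listed for plant 1 and its window is chr3:18260949-18261248, minus strand. *EFS* (a histone H3 lysine methyltransferase that keeps the flowering repressor *FLC* active) was listed for plant 1 and its window is chr1:29049405-29049704, minus strand. *SUVH4* (the histone H3 methyltransferase KRYPTONITE) was listed for plant 2 and its window is chr5:4501112-4501411, plus strand. *CRY1* (the blue light receptor cryptochrome 1) was listed for plant 3 and its window is chr4:5723401-5723700, plus strand. *DMS3* was chosen after its values were seen.
DMS3: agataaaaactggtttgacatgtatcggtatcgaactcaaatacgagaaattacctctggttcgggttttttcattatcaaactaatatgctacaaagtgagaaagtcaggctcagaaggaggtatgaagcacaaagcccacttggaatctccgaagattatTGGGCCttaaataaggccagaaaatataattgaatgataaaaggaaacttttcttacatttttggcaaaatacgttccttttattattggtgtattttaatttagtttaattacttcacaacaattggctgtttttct
EFS: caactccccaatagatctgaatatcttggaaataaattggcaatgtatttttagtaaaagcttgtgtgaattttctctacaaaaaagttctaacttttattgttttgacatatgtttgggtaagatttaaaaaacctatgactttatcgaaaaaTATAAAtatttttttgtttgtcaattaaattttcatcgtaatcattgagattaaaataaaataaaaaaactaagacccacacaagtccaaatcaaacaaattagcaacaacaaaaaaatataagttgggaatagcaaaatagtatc
SUVH4: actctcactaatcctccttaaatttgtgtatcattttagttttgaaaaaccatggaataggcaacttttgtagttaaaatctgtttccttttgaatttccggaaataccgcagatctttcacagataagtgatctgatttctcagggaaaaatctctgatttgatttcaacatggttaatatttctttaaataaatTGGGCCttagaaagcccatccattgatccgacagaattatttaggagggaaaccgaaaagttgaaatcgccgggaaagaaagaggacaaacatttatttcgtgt
CRY1: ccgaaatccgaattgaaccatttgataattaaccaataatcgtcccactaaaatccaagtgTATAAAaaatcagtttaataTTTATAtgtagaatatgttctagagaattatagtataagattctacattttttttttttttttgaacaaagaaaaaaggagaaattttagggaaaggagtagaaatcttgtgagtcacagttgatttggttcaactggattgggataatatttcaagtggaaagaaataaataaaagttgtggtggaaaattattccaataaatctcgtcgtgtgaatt
Counted from the gene start, the site II element began at -88 in *DMS3* and at -54 in *SUVH4*. *EFS* had a TATA box from -96, and *CRY1* had TATA boxes from -189 and, on the other strand, -169. A match is a string in this window and says nothing of a factor bound there.

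The size of the set followed from how the lists of each plant compared with those of the others. In plant 1 the lists held 1608 genes against control C2 and 1305 against C3 (5.86% and 4.76% of all genes), and 990 genes (3.61%) stood in both. Single-plant genes were 18.3% of these 990. In plant 2, the 1296 and 1053 listed genes (4.72% and 3.84%) had 694 (2.53%) in common, and single-plant genes were 6.05% of those. In plant 3, the 1213 and 973 listed genes (4.42% and 3.55%) had 669 (2.44%) in common, and single-plant genes were 5.53% of those. Of the genes listed against both controls, 612 in plant 1 (61.8%), 591 in plant 2 (85.2%) and 567 in plant 3 (84.8%) were also listed against both controls for another plant, and 197 (19.9%), 61 (8.79%) and 65 (9.72%) for another plant but never against both controls. These values were used by the rule, so they are a description. The counts per plant depended on which other plants were set against it. Plant 1 had 264 single-plant genes without plant 2 and 248 without plant 3, plant 2 had 90 without plant 1 and 88 without plant 3, and plant 3 had 87 without plant 1 and 82 without plant 2.

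**Figure D1:**
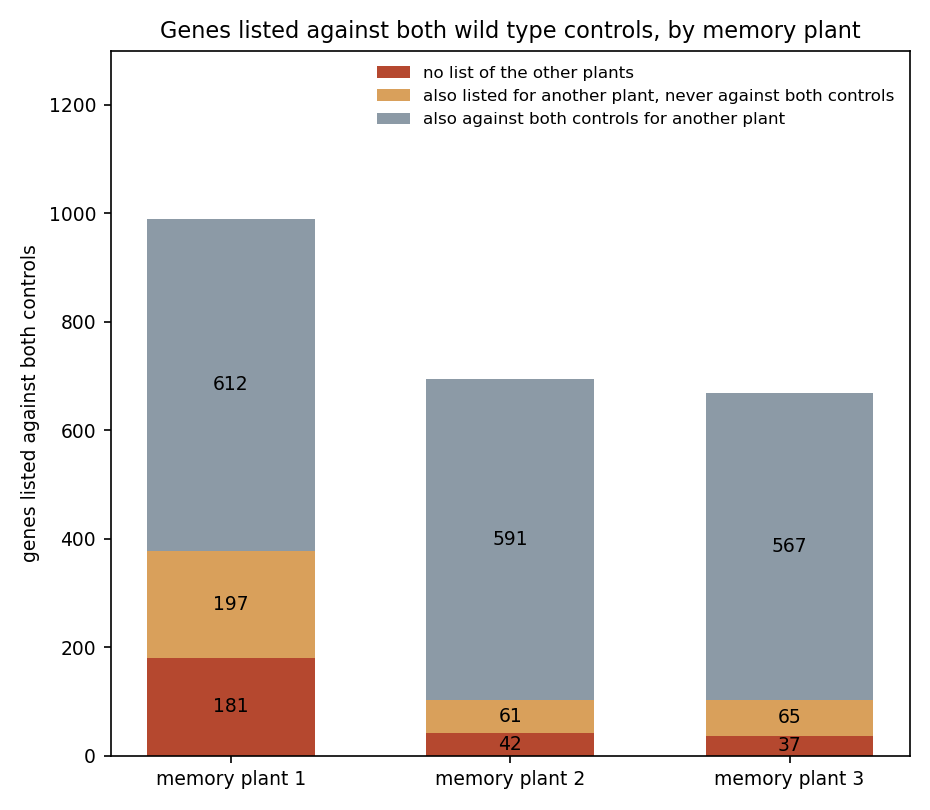
Genes listed against both wild type controls (number of genes), stacked for each of the 3 memory plants by their listing in the other plants. The bottom bar segment holds the single-plant genes, 181 in plant 1, 42 in plant 2 and 37 in plant 3.

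Just outside the rule were 147 genes that were listed against both controls for their plant and in 1 further list, 76 for plant 1, 36 for plant 2 and 35 for plant 3. The further list was against C2 in 83 genes and against C3 in 64. Among them were *AGO7* (an ARGONAUTE of trans-acting siRNA biogenesis, plant 1) and the cytokinin response factors *CRF1* (plant 2) and *CRF2* (plant 3), all chosen after their values were seen. A further 813 genes stood in a single list, so that members were 24.2% of the 1073 genes listed for 1 plant only. The rule was met the other way round, with both lists of 2 plants and none of the remaining plant, by 96 genes: 22 without plant 1, 38 without plant 2 and 36 without plant 3.

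Genes of chromatin and silencing formed a small group of members. Groups were built from words in RefSeq product names, and a gene could fall in several. Chromatin and silencing words matched 7 members (2.69%), against 1.31% of listed genes, 1.41% of the genes in all 6 lists and 1.22% of all genes. Plant 1 held 5 of them (2.76% of its members), plant 2 held 2 (4.76%) and plant 3 held 0. In plant 1 these were *EFS*, *CHR38* (CLASSY 1, a remodeller that brings RNA polymerase IV to silenced loci), the DEK domain gene AT3G48710 and the genes AT4G32295 and AT5G40600, named for a histone acetyltransferase and a bromodomain protein. In plant 2 they were *SUVH4* and AT2G25625, named for a histone deacetylase. The deposited descriptions name a chromatin function only for *EFS*, *CHR38* and *SUVH4*. They give none for AT3G48710, AT4G32295, AT5G40600 and AT2G25625, whose place in the group rests on the RefSeq product name alone. *SUVH4* methylates lysine 9 of histone H3, the mark read by the CHROMOMETHYLASE 3 DNA methyltransferase. Members with chromatin functions that the words missed, chosen after their values were seen, were *DMS3*, *RLT2* (a partner of ISWI remodellers), *AL7* (an Alfin-like PHD finger protein) and *ARP7* (an actin-related subunit of SWI/SNF remodellers) in plant 1 and *DMC1* (the meiotic recombinase) in plant 3. No test was run on these 7 genes. The share was 1.13% when the rule was applied without plant 1, 1.73% without plant 2, and 1.15% by the words of the deposited descriptions, against 0.923% of listed genes. Without plant 1 it thus lay below the share of all genes.

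*EFS* was a long gene at 9533 bp and *CHR38* had the most space around it of the named chromatin genes, 77858 bp to both neighbours together, of which 77762 bp lay upstream. *DMS3* spanned 5039 bp with 474 bp of free space, and *SUVH4* spanned 4889 bp with 626 bp. Where genes lie close, a peak between them can fall in the window of each.

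Light and clock words matched *CRY1* alone (0.385%, against 0.308% of listed genes and 0.248% of all genes). The share was 0.578% when the rule was applied without plant 2 and 0.0% without plant 3, the plant of *CRY1*. *CRY1* was 3618 bp long with 12035 bp of space. A related gene outside the words, chosen after its values were seen, was *KAI2* in plant 2, the receptor for karrikins and a regulator of seedling responses to light. Hormone words matched 3 members (1.15%, against 1.27% of listed genes and 1.09% of all genes), all of plant 1: *ABF3* (a bZIP factor of abscisic acid signalling), *SAUR24* and AT1G72430 (both of the small auxin-up RNA family). *YUC6* (an auxin biosynthesis monooxygenase) and *LOG6* (a cytokinin-activating enzyme), both of plant 1, were chosen after their values were seen. Without plant 1 the hormone share was 0.565%.

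Transcription factors were the largest group with a stated function, 15 members (5.77%, against 6.08% of listed genes and 6.33% of all genes), close to the background. Plant 1 held 11, among them *SPT* (SPATULA, a bHLH factor of carpel development), *MYB33* (a GAMYB factor targeted by miR159), *BLH8* (a BEL1-like homeodomain protein), *RLT2*, *REM20* and *anac067*. *RZ1C* entered this group only by the words zinc finger and is named as an RNA-binding protein. Plant 2 held *MYB122* (a regulator of indole glucosinolates) and *AP3* (a MADS-box gene of petal and stamen identity), and plant 3 held *NAC043* (NST1, a factor of secondary wall thickening) and AT3G31402. *AP3* spanned 2175 bp with 1096 bp of space, and *NAC043* spanned 2192 bp with 6291 bp. *SPT* and *MYB33* differed in surroundings too, with 10100 and 824 bp of space.

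Signalling and protein turnover came next. Protein kinase words matched 9 members (3.46%, against 3.00% of listed genes and 3.35% of all genes), with *KINB3* (a subunit of the SnRK1 energy-sensing kinase) in plant 1 and *LECRK56* (a lectin receptor kinase) and *PERK5* (a proline-rich receptor kinase) in plant 3. Ubiquitin ligase words matched 12 members (4.62%, against 5.12% of listed genes and 5.49% of all genes), of which 9 were in plant 1. *PUB17*, *PUB18* and *AIRP1* (ligases with roles in defence or abscisic acid responses) belonged to plant 1, and RBX1 (AT5G20570), the RING core of SCF ligases, to plant 2. *APC2* and *CDC20-2*, both of the anaphase-promoting complex that drives mitotic exit, were members of plant 2, chosen after their values were seen. Without plant 1 the ubiquitin ligase share was 1.69%.

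Organelle, RNA, ribosome and pentatricopeptide repeat words each matched 4 to 8 members. Plastid and mitochondrion words matched 7 members (2.69%, against 1.88% of listed genes and 1.45% of all genes), and 23 (8.85%) by the deposited descriptions, against 6.81% of listed genes. Plant 1 held *MCD1* (placement of the chloroplast division site), *WEB1* (chloroplast movement), *SURF1* (cytochrome c oxidase assembly) and *MTM1* (a mitochondrial carrier linked to manganese), and plant 3 held *CHL* (a chloroplastic lipocalin). RNA binding and splicing words matched 7 members (2.69%, against 1.69% and 1.56%), 6 of them in plant 1, including *RS40* (a serine/arginine-rich splicing factor), *RZ1C* and *S-RBP11*. Ribosome and translation words matched 8 members (3.08%, against 3.50% and 2.52%), such as *RPL18* and *RPS17B* in plant 1 and *EFTS* (an organelle elongation factor) and *EIF(ISO)4E* (a cap-binding isoform) in plant 2. *TAF12B* entered that group only by the words initiation factor and belongs to transcription. Pentatricopeptide repeat genes, whose products process organelle transcripts, gave 4 members (1.54%, against 2.27% and 2.12%), with *PPR596* and *EMB2076* in plant 1. Without plant 1 the shares were 1.69% for plastid and mitochondrion and 1.13% for RNA binding and splicing. The share of pentatricopeptide repeat genes was 2.26% without plant 1, 2.31% without plant 2 and 2.38% without plant 3. By the deposited descriptions the shares were 1.54% for ribosome and translation, against 2.62% of listed genes, and 3.08% for RNA binding and splicing, against 0.885% of listed genes. The pentatricopeptide repeat share thus lay above that of all genes whichever plant was left out, and below it with all plants used. The RNA binding and splicing share lay below that of all genes when plant 1 was left out.

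Transport, redox, cell wall, metabolic and immune functions made up the remaining groups. Transporter words matched 8 members (3.08%, against 2.96% of listed genes and 3.05% of all genes), including *ATOPT3* (a phloem iron transporter), *CAT9*, *CLC-F*, *PHT1-7* and *UMAMIT46* in plant 1 and *GONST3* (a Golgi nucleotide sugar transporter) in plant 3. Chaperone and redox words matched 5 (1.92%, against 2.15% and 2.07%), with *CSD2* (a chloroplast copper/zinc superoxide dismutase) and *CCB2* (haem attachment in cytochrome b6) in plant 2. Cell wall words matched 2 (0.769%, against 1.81% and 2.43%), *QRT3* (a pectinase of pollen separation) and AT3G45230. Specialised metabolism words matched 9 (3.46%, against 2.35% and 3.31%), most of them only through the word methyltransferase. Those were *SUVH4*, *EFS*, *SHM7* (a serine hydroxymethyltransferase), AT1G02100, AT1G36310, AT1G54310 and AT4G14360. The others were AT1G48300, a diacylglycerol acyltransferase, and *RXW8*, matched through GDSL but described in the lists as a CSC1-like protein. A match of words thus does not make these genes of specialised metabolism. Immune words matched 7 (2.69%, against 2.04% of listed genes and 2.75% of all genes), but 4 of these matched only through methionine. Without such matches 3 members (1.15%) remained, against 506 of all genes (1.84%). These were the NB-ARC gene AT1G61300 in plant 1, the TIR-NBS-LRR gene AT3G44630 in plant 2 and the defensin-like gene AT4G08485 in plant 3. By the deposited descriptions, with methionine matches not removed, 6 members (2.31%) matched, against 2.04% of listed genes. They included AT2G04034 of plant 3, described there as defensin-like and chosen after its values were seen. Product names of unknown function covered 38 members (14.6%, against 15.2% and 14.7%), and 130 members matched no functional word. The cell wall share was 1.45% to 1.69% when a plant was left out, and the shares without plant 1 were 3.39% for chaperone and redox and 2.26% for specialised metabolism.

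**Figure D2:**
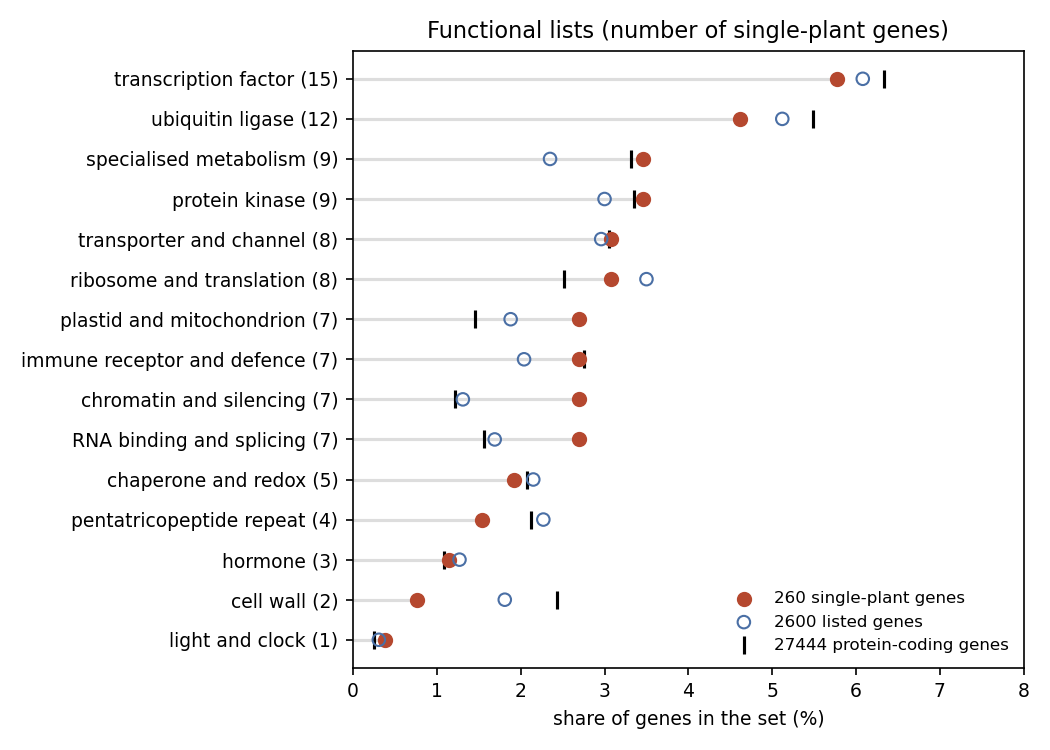
Share of genes (%) whose product name matched each functional list, for the 260 single-plant genes (filled points), the 2600 listed genes (open points) and all 27444 genes (bars), with the number of single-plant genes in brackets. Chromatin and silencing stands at 2.69% of single-plant genes against 1.22% of all genes, while transcription factors stand at 5.77% against 6.33%, and the immune list counts the 4 genes matched through methionine.

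Features that the rule did not use were compared next. The members had a median length of 2355 bp (quartiles 1625 and 3297 bp), while genes common to the 6 lists had 2249.5 bp and all genes 2078 bp. By plant the medians were 2583 bp in plant 1, 2166.5 bp in plant 2 and 2133 bp in plant 3. Free space to both neighbouring genes had a median of 2865 bp, while genes common to the 6 lists had 3623.5 bp and all genes 1855.5 bp. Plants differed here, with 3315 bp in plant 1, 1147.5 bp in plant 2 and 3737 bp in plant 3, so that only the members of plant 2 lay closer to their neighbours than all genes did. Longer genes with larger windows have more room for a peak, and the part of this in the listing was not tested. Members ranged in length from 147 bp (AT1G48912) to 26499 bp (AT1G48090).

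**Figure D3:**
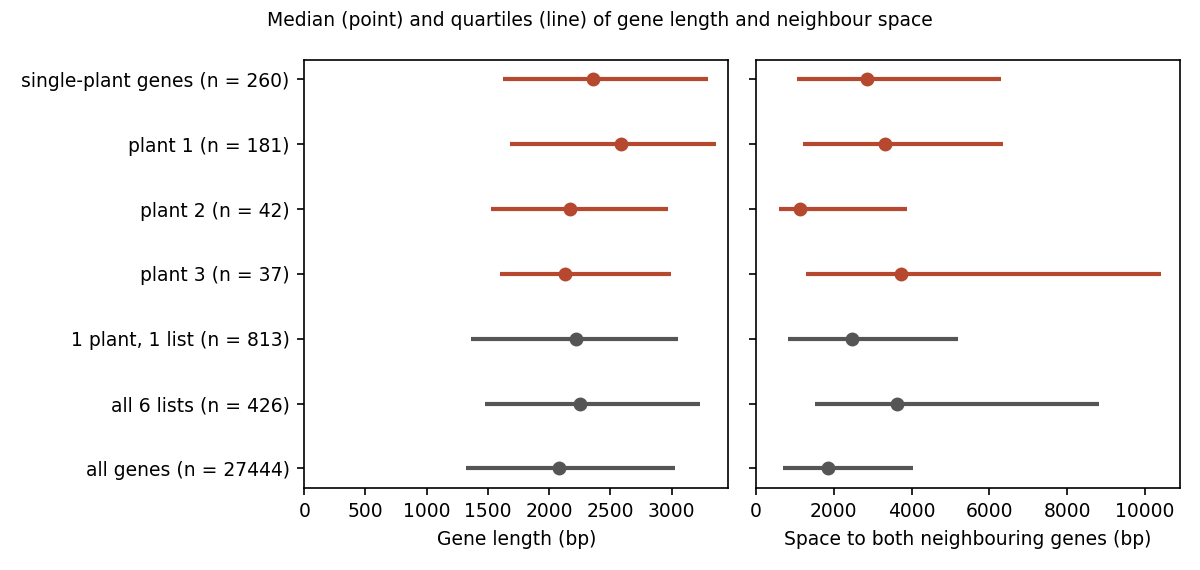
Median (points) and quartiles (lines) of gene length (left, bp) and of space to both neighbouring genes (right, bp) for the single-plant genes together and by plant, genes in a single list, genes in all 6 lists and all genes. Space is lowest in plant 2 (1147.5 bp) and highest in plant 3 (3737 bp).

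Base composition was close to that of all genes, and repeat content was higher than in all genes but lower than in listed genes. Across each gene and its flanks of 2 kb, the median GC content was 36.3%, as in genes of all 6 lists, against 36.5% for all genes. The share of 31-base words found more than once in the genome had a median of 0.978% in members, against 2.84% in genes of all 6 lists and 0.421% in all genes. Members stood between these sets, and below the 1.27% of all listed genes and the 1.40% of the 813 genes in a single list. AT4G19250 had the highest repeat share of the members at 57.3%. Words shared with organelle genomes occurred in 2 members (0.769%), against 1.59% of all genes. Chromosome 1 held 65 members (25.0%, against 26.1% of all genes), chromosome 2 held 46 (17.7%, against 15.7%), chromosome 3 held 50 (19.2%, against 19.9%), chromosome 4 held 46 (17.7%, against 15.2%) and chromosome 5 held 53 (20.4%, against 23.1%).

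A peak near several genes can be assigned to more than 1 of them, so the genes around the members were examined. Of the 260 members, 57 (21.9%) had a gene with an overlapping 2 kb window that was listed for another memory plant, and 203 had none. The share was 18.8% (34 of 181) in plant 1, against 16.3% of all genes. In plant 2 it was 33.3% (14 of 42), against 18.2%, and in plant 3 it was 24.3% (9 of 37), against 18.8%. Around these 57 genes, another plant had a listed gene within reach of the same stretch of sequence, and whether the plants differed in their peaks there or only in the gene a peak was assigned to cannot be told apart. *SUVH4* was such a gene. Its 3′ end overlapped AT5G13970 by 60 bp, and AT5G13970, of the opposite strand, was listed against both controls for plant 3 and against C2 for plant 1. *EFTS* of plant 2 stood 205 bp from *RDR2* (RNA-dependent RNA polymerase 2 of the silencing pathway), listed for plant 3 against C3, and 526 bp from *SPA2*, listed against C2 for plants 1 and 2. *RCD1* of plant 1 was 1922 bp from AT1G32220, listed for plant 2 against C2, and *ARP7* of plant 1 was 11 bp from *PBF1*, listed for plant 3 against C2. *CDC20-2* of plant 2 was 619 bp from *CDC20-1*, listed against C3 for plants 1 and 2. In plant 1, *RS40* overlapped AT4G25510, listed against C2 for all 3 plants, by 42 bp. *QRT3* of plant 1 was 421 bp from *EMB1895*, which stood in 5 lists. *EFS*, *CHR38*, *DMS3*, *CRY1*, *KAI2*, *MYB33*, *SPT* and *ABF3* had no such neighbour.

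The neighbour was itself in all 6 lists for 11 members. *AGP17* (an arabinogalactan protein) lay 24 bp from AT2G23140, the U-box ligase gene of plant 1, and *RAN2* (a GTPase of nuclear import) lay 238 bp from its paralogue *RAN1*, a member of plant 1. *TPR2* (a TOPLESS-related corepressor) lay 31 bp from AT3G16840, and *YAB5* lay 1135 bp from *WEB1* of plant 1. *XI-H* (a class XI myosin of plant 3) overlapped AT4G28706 by 457 bp. At these loci the memory plants shared a listed gene, and the single-plant listing concerned the adjacent gene. Of the 57 members with a neighbour listed for another plant, the gene body overlapped that neighbour in 5. In 44 of the 57 the gap was under 2 kb, overlaps included. Neither these counts nor that of the 11 members was made over all genes.

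**Figure D4:**
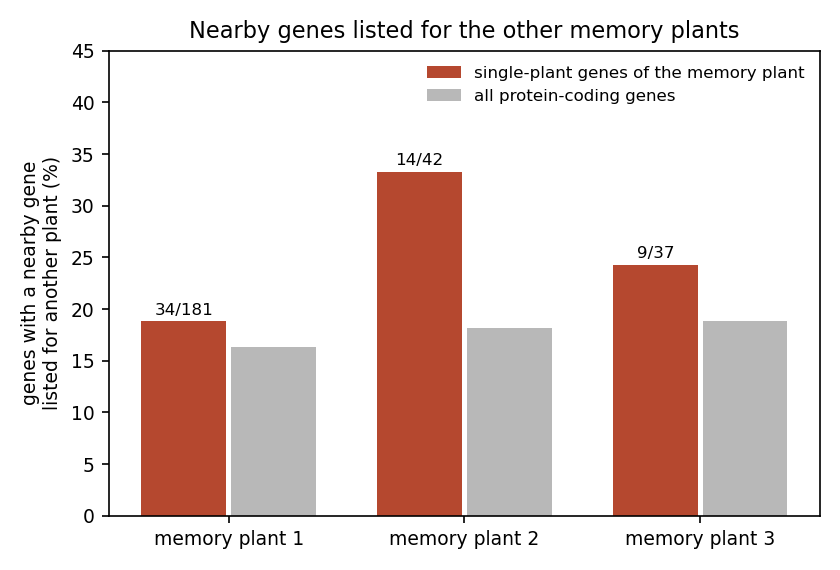
Share of genes (%) with a nearby gene, of overlapping 2 kb windows, that was listed for another memory plant, for the single-plant genes of each plant (left bars, with counts) and for all 27444 genes (right bars). The shares were 18.8%, 33.3% and 24.3% in plants 1, 2 and 3, against 16.3%, 18.2% and 18.8% of all genes.

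Some members adjoined each other. In plant 1, 10 of 181 members (5.52%) had another member of that plant with an overlapping window, against 0 in plants 2 and 3. The same share over all genes was not computed, so these counts have no background. Windows of 6 pairs of members overlapped, 5 of them within plant 1 and 1 between plants. Among those of plant 1 were AT1G61900 with AT1G61920 (3326 bp, head to head), AT2G23120 with AT2G23140 (2775 bp), AT4G20460 with AT4G20470, and AT5G28919 with AT5G28920. The gene bodies of both last-named pairs overlapped. The pair between plants was *GAMMACAL2* (a subunit-like carbonic anhydrase of mitochondrial complex I, plant 3) and AT3G48710 (plant 1), with 3633 bp between them. Counting each neighbourhood of 1 plant once left 255 members.

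The row order of the lists gave a further property. Each list ran along every chromosome in 3 sorted runs, the first with genes of the plus strand, the second with genes of the minus strand and the third mixed; what the runs stand for is not given in the sources used here. In both lists of their plant 125 members (48.1%) were in the third run and 116 (44.6%) in the strand runs, while 19 (7.31%) changed run between the controls. By plant, 76 of 181 (42.0%), 27 of 42 (64.3%) and 22 of 37 (59.5%) were in the third run in both lists. Over whole lists, each taken alone, the third run held 30.3% to 44.5% of the genes. Being in the third run in both lists is the stricter condition, so these shares are not like measures. Members of the third run had a median free space of 1914 bp, against 3986.5 bp for those of the strand runs. *SUVH4*, *EFS*, *DMS3* and *KAI2* were in the third run in both lists, *CHR38* and *NAC043* in the second and *CRY1*, *SPT* and *ABF3* in the first.

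Promoter motifs were searched on both strands from 250 bases before to 50 after the gene start. The TATA box (TATAAA) was in 134 member promoters (51.5%), against 52.1% of all promoters, and the G-box (CACGTG), the core bound by bZIP and bHLH factors, in 23 (8.85%, against 7.68%), including *SPT*, *PUB18*, *MYB122* and *ASN1*. The W-box core (TTGACC) was in 36 (13.8%, against 14.2%), the ABRE core (ACGTGTC), which can overlap a G-box, in 10 (3.85%, against 4.33%) and the evening element (AAAATATCT) in 7 (2.69%, against 2.82%), of which *RS40* was an example. The telo box (AAACCCTAA), common in ribosomal protein promoters, was in 15 (5.77%, against 3.60%), among them *NOP56* (a ribosomal RNA processing protein of plant 3), *RPP2C* and *EFTS*. The 15 also held *anac067*, *RZ1C*, *PPR596* and *ASN1*, which are outside the ribosome and translation group. The site II element (TGGGCC), searched after it was seen in the printed promoters of *DMS3* and *SUVH4*, was in 46 (17.7%, against 15.5%). No test was run on these shares.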

How the data were processed

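Nuclei of crosslinked rosettes were assayed by FAIRE-seq in 3 libraries of the *msh1* memory line and 2 of Col-0 wild type, each called a plant here. The 2 decrossed pools were left out. Per the labels, the authors deposited 6 lists of genes, which pair every memory plant with every wild type control (codes C2 and C3, whose replicate numbers are not given in the sources used here), with no other value. Trim Galore 0.4.1, cutadapt 1.9.1, Bowtie2 and TAIR10 are named in the submitters' processing notes; peak caller and threshold are not given in the sources used here. Columns of other samples numbered 0.

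Locus identifiers of all listed genes matched RefSeq TAIR10.1, which gave coordinates, product names and sequence, and 0 listed genes were unmatched. Lists were intersected in Python 3.11.15 with pandas 2.3.3 and numpy 2.4.6, after the rule had been tested on simulated lists. No test was fitted, since each list is 1 library against 1 library. The members and the functional lists were chosen with earlier results of these data known. A member was named when the lists gave a symbol and a functional word matched, when it formed a pair with another member, or when it stood beside a gene of another plant; other names were chosen after their values were seen. Some items are not reported here.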

Additional observations from a re-analysis of the deposited data

How the results depend on the processing

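The number of single-plant genes (260) depended on the use of the controls: it was 887 with control C2 alone, 827 with C3 alone and 1073 with either control. Leaving out a memory plant gave 177 to 346 genes (177 without plant 1, 346 without plant 2, 336 without plant 3). It was 203 without members beside a gene of another plant, 255 with adjoining members of a plant counted once and 258 without organelle-like sequence. Median length ranged from 2280 to 2420.5 bp and median space from 2245 to 2982 bp when a memory plant was left out. Of 64 alternative shares of functional lists, 46 were within 1.5 times the reported one. Leaving out plant 1 changed 8 of them, among these chromatin and silencing (1.13%), and the words of the deposited descriptions changed 4. The immune share, without matches through methionine, was 1.15%, an alternative chosen after seeing the data. A stricter peak threshold was not run, because the lists hold no peak values. No paired analysis was possible because the lists carry no replicate number for the wild type plants and the result comes from no test.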
